A study of Mus musculus with 8 samples.

Results

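Transcripts of genes for lactate and glucose transport, and of related genes, were compared in the retinal pigment epithelium (RPE) between mice with and without Bbs8. They were picked by name, through a rule that sets no threshold on their values, as 9 of the 31053 genes in the count files. The choice was made with earlier results of these data known. The members are Slc16a1, Slc16a3, Slc16a6, Slc16a7, Slc16a8 and Slc16a10 of the monocarboxylate transporter family and the glucose transporters Slc2a1 and Slc2a3. Bsg, which encodes a chaperone of some of them, is the last member. RNA came from RPE isolated at postnatal day 29 (P29) from C57/Bl6 mice, with 4 libraries from Bbs8+/+ wild-type animals and 4 from Bbs8-/- littermates, each animal being a biological replicate, no animal treated and the gender not determined. The knockout is present in every cell of the animal and is not limited to the RPE, so photoreceptors next to the RPE lacked Bbs8 as well. QuantSeq 3′ libraries, which sample the poly-A end of each transcript, were built from 30 ng of RNA and are numbered here as in their labels.

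Photoreceptors break down glucose to lactate even in the presence of oxygen, and the RPE lies between them and the choroidal blood that supplies the glucose. Glucose enters and leaves the RPE through GLUT1, the product of Slc2a1, while lactate is taken up from the retinal side through MCT1, the product of Slc16a1, and passed to the choroidal side through MCT3, the product of Slc16a8. MCT1, MCT3 and MCT4, the product of Slc16a3, reach the membrane in complex with basigin, the product of Bsg. MCT3 is made in few tissues outside the RPE, whereas MCT4 is typical of strongly glycolytic cells.

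Promoters are shown for the 4 members past the test whose RefSeq promoter on GRCm38.p6 was at hand, because these genes moved in opposite directions. Each sequence runs 5′ to 3′ on the strand of the gene, from 250 bases before the start site to 50 after it. Capitals mark ACGTG read on either strand, the letters at the core of hypoxia response elements and of one kind of E-box. Slc16a1 (chr3:104638414-104638713, plus strand) and Slc16a3 (chr11:120948817-120949116, plus strand) were lower in Bbs8-/- RPE, and Slc16a8 (chr15:79254699-79254998, minus strand) and Slc2a1 (chr4:119108495-119108794, plus strand) were higher.
Slc16a1: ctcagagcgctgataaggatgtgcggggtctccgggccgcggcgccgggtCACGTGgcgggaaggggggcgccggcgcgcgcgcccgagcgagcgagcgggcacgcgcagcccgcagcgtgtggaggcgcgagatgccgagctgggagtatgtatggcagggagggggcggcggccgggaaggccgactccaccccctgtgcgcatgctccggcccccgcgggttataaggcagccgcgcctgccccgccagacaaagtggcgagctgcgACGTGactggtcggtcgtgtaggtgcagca
Slc16a3: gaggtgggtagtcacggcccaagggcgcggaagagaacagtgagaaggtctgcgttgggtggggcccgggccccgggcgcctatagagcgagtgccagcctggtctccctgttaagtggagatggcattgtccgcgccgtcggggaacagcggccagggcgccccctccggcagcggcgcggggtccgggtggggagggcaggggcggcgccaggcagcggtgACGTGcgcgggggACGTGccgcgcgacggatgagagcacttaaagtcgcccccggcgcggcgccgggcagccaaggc
Slc16a8: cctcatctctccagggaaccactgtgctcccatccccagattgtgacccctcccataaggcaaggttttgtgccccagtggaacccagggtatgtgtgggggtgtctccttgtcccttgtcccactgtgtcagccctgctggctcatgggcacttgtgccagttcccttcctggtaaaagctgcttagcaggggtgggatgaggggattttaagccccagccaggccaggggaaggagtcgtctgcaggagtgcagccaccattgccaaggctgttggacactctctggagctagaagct
Slc2a1: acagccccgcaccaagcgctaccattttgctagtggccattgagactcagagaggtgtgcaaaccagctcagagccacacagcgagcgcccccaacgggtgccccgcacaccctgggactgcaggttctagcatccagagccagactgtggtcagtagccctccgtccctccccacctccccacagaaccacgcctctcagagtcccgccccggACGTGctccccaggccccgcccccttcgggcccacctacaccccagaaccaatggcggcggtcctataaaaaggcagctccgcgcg
The promoters of Slc16a1 and Slc16a8 lie at opposite ends in their number of CpG dinucleotides. That of Slc16a1 holds 42 CpG dinucleotides and that of Slc16a8 holds 1, against a median of 7 over the 32851 mouse promoters in the same table, of which 5.43% hold fewer than Slc16a8. Slc16a3 has 36 and Slc2a1 has 18. ACGTG occurs in 19.6% of all these promoters on either strand. It was found at 3 positions in Slc16a1, 2 of which are the same palindrome CACGTG read on each strand, at 2 in Slc16a3 and at 1 in Slc2a1. No match lies in the window of Slc16a8. CACGTG alone occurs in 7.15% of all promoters, and neither CACATG (14.2%) nor TAATCC (7.06%) was found in any of these windows. These matches describe the letters of the windows and no binding.

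The libraries held 2389835 to 3093428 counts on genes, and expression is given as CPM, counts relative to the library size, scaled with the trimmed mean of M-values (TMM). The share of reads not assigned to a gene, for any reason, was 51.0% to 52.4% in Bbs8+/+ and 53.6% to 54.2% in Bbs8-/- libraries, without overlap. Its part in the differences given here was not tested. At this depth 3 counts, taken as the floor, amount to 1.02 to 1.23 CPM. Ttc8, the gene known as Bbs8, was at 105, 142, 144 and 116 counts in Bbs8+/+ libraries 1 to 4 and at 15, 5, 14 and 15 in the Bbs8-/- libraries, as labelled. The RPE genes Rpe65 and Rlbp1 were abundant in all libraries, whereas Best1 did not exceed 5 counts and Cldn19 did not exceed 3 in any of them. RNA of neighbouring tissue was present too. Summed over 14 rod markers, the level was 60840 to 64781 CPM in Bbs8+/+ and 25134 to 25816 CPM in Bbs8-/- libraries, and all 14 were lower. All 15 lens markers were lower as well, with sums of 3377 to 3612 CPM and 467 to 522 CPM. In bulk RNA, fewer cells of a type and less RNA per cell cannot be told apart.

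At P29 the members did not all move one way between the bulk RNA of the 2 genotypes. Of 7 members that could be tested, Slc16a8 and Slc2a1 were higher (2) and Slc16a1, Slc16a3 and Slc16a6 lower (3) in Bbs8-/- libraries. Bsg and Slc16a7 did not pass the threshold (2). Calls are by edgeR's quasi-likelihood F test with an adjusted p under 0.05 over all genes. The part of the lower rod and lens RNA in these differences was not tested. Slc16a10 and Slc2a3 stayed below the filter of 1 CPM in 4 libraries. Of all 12889 tested genes, 5.46% were called higher and 6.80% lower. The members were chosen with earlier results of these data known, so their counts beside these shares are a description only. The 5 called members were also those whose genotypes did not overlap, with the Bbs8-/- libraries above in 2 and below in 3, while 7.42% of all tested genes lay entirely above and 8.62% entirely below. The median log2 fold change was 0.05 for the tested members and 0.02 for all tested genes.

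**Figure D1:**
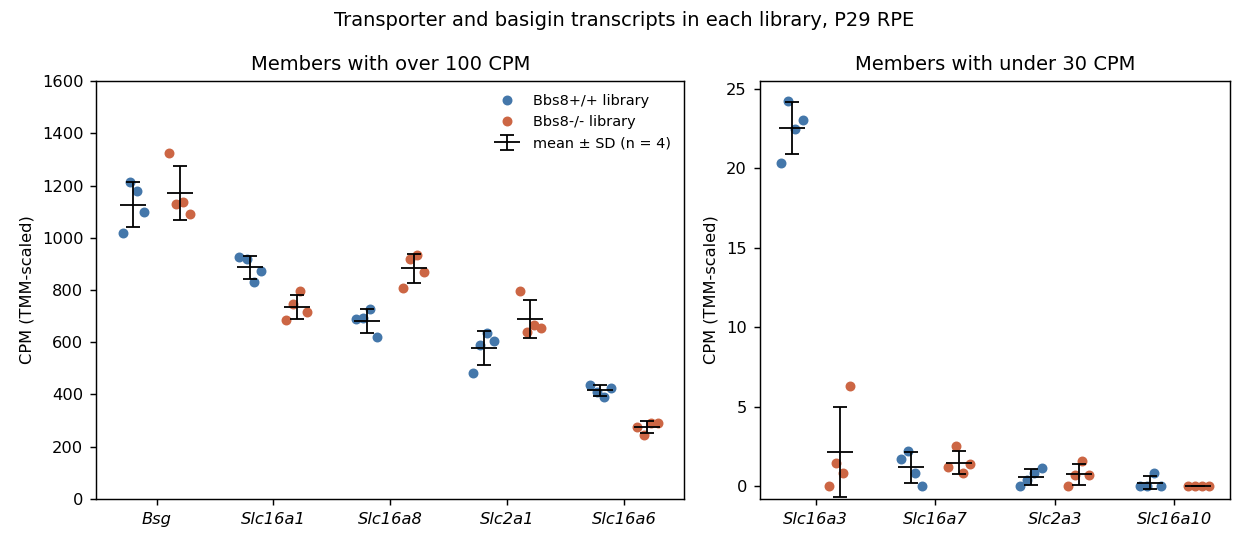
Level of each member in CPM (vertical axes, linear, different in the 2 panels) in the 4 Bbs8+/+ (blue) and 4 Bbs8-/- (red) libraries, plotted in the order of their numbers, with the mean ± SD in black. Slc16a8 and Slc2a1 lie higher in Bbs8-/- libraries, Slc16a1, Slc16a6 and Slc16a3 lie lower, the Bsg libraries overlap, and Slc16a7, Slc2a3 and Slc16a10 stay under 3 CPM.

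Slc16a1, the importer of lactate on the retinal side, lies at chr3:104638668-104658462 on the plus strand (GRCm38, as are all gene positions here). It was at 928, 917, 832 and 874 CPM in Bbs8+/+ libraries 1 to 4 and at 684, 747, 794 and 717 CPM in Bbs8-/- libraries 1 to 4. Every Bbs8-/- library was below every Bbs8+/+ library, although the closest pair, Bbs8+/+ library 3 and Bbs8-/- library 3, was near. The mean fell from 888 ± 43.9 to 736 ± 46.9 CPM (SD, n = 4 each), a log2 fold change of -0.27 (SE 0.0725, edgeR adjusted p = 0.00873), so that the level fell by 17.1%. The call depended on the scaling. With library size alone the log2 fold change was -0.18 (edgeR adjusted p = 0.0942), and scaled to genes of the RPE it was -0.19 (edgeR adjusted p = 0.105). Photoreceptors also express Slc16a1, and the rod marker sums given above fell between the same libraries; their part in this difference was not tested.

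Slc16a8, the exporter of lactate on the choroidal side, lies at chr15:79251014-79254761 on the minus strand. Its level was 689, 694, 728 and 618 CPM in Bbs8+/+ libraries and 809, 919, 935 and 869 CPM in Bbs8-/- libraries. The lowest Bbs8-/- library, number 1, was above the highest Bbs8+/+ library, number 3. The mean rose from 682 ± 45.9 to 883 ± 56.8 CPM (SD, n = 4 each), by 29.4% (log2 fold change 0.37, SE 0.0745, edgeR adjusted p = 3.86e-04). This call held in all 15 alternative settings, with log2 fold changes of 0.33 to 0.46. Of 16 tested RPE markers 8 were higher too and 2 were lower, with a median log2 fold change of 0.28. The part of a changed share of RPE RNA in the rise of Slc16a8 was not tested. Gm49486, which overlaps an exon of Slc16a8 on the other strand, had at most 6 counts.

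Since Slc16a1 and Slc16a8 moved apart, their order differed between the genotypes. Per Slc16a1 read there were 0.743, 0.758, 0.875 and 0.708 Slc16a8 reads in Bbs8+/+ libraries and 1.18, 1.23, 1.18 and 1.21 in Bbs8-/- libraries. Slc16a1 exceeded Slc16a8 in every Bbs8+/+ library, and Slc16a8 exceeded Slc16a1 in every Bbs8-/- library. The mean ratio was 0.771 ± 0.0724 and 1.20 ± 0.0249 (SD, n = 4 each). A ratio within a library is not touched by the scaling, but it shows only that the genes changed unequally. Between the same libraries the median log2 fold change was -1.27 for rod markers and 0.28 for RPE markers (8 higher, 2 lower). The part of these shifts in the ratio of Slc16a8 to Slc16a1 was not tested. This ratio was formed after the values had been seen and is given without a test. Leaving out each library in turn kept the log2 ratio of the genotypes between 0.60 and 0.71.

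Slc16a3, which encodes the lactate exporter MCT4, lies at chr11:120948480-120960868 on the plus strand and was the member with the largest fold change. It had 60, 65, 55 and 62 counts in Bbs8+/+ libraries and 0, 4, 2 and 18 counts in Bbs8-/- libraries. Bbs8-/- library 4 stood above the other 3 of its genotype, of which libraries 1 and 3 were under the floor. Mean levels were 22.5 ± 1.65 and 2.13 ± 2.83 CPM (SD, n = 4 each), a log2 fold change of -3.31 (SE 0.475, edgeR adjusted p = 1.75e-06), or 9.95-fold lower. Without Bbs8-/- library 4 the log2 fold change was -4.78, and the gene stayed lower in all 15 alternative settings. The lens markers fell with it, by a median log2 fold change of -2.83, although lens had been removed in the dissection; their part in the fall of Slc16a3 was not tested. Slc16a3 was the scarcest of the called members, at 55 to 65 counts against 2035 to 2741 of Slc16a1 in the Bbs8+/+ libraries.

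Slc16a6 encodes MCT7, for which transport of ketone bodies has been described, and lies at chr11:109450855-109473598 on the minus strand. It was at 438, 410, 390 and 424 CPM in Bbs8+/+ libraries and at 274, 243, 290 and 291 CPM in Bbs8-/- libraries. The genotypes were separated by a gap wider than the spread within either. The mean fell from 415 ± 20.5 to 274 ± 22.1 CPM (SD, n = 4 each), by 34.0% (log2 fold change -0.60, SE 0.0875, edgeR adjusted p = 2.49e-06), and the call held in all 15 alternative settings. The rod marker sums given above fell between the same libraries, and their part in the fall of Slc16a6 was not tested. Per Slc16a1 read there were 0.468 ± 0.0162 Slc16a6 reads in Bbs8+/+ and 0.374 ± 0.0370 in Bbs8-/- libraries (SD, n = 4 each), without overlap. Exons of Amz2 and Arsg overlap Slc16a6 on the opposite strand, and the strand setting of the counting is not given in the sources used here. Amz2 had 112 to 134 counts in Bbs8+/+ and 84 to 140 in Bbs8-/- libraries, and Arsg had 52 to 107 and 71 to 125, against 667 to 1293 for Slc16a6.

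Slc16a7 and Slc16a10 were at or near the floor. Slc16a7, which encodes the high-affinity transporter MCT2 typical of neurons, had 5, 6, 2 and 0 counts in Bbs8+/+ and 3, 7, 2 and 4 in Bbs8-/- libraries. Its log2 fold change of 0.31 had an SE of 1.02 (edgeR adjusted p = 0.904), and a difference was not detectable at this depth. Slc16a10, which encodes a transporter of aromatic amino acids, had 2 counts in Bbs8+/+ library 3 and 0 in the other 7 libraries. A count of 0 allows up to 1.02 to 1.23 CPM.

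Bsg, at chr10:79704491-79711969 on the plus strand, was the most abundant member in every library. It was at 1017, 1213, 1178 and 1100 CPM in Bbs8+/+ and at 1323, 1129, 1138 and 1093 CPM in Bbs8-/- libraries. The ranges overlapped, with Bbs8-/- library 1 above the rest. Means of 1127 ± 87.2 and 1171 ± 103 CPM (SD, n = 4 each) gave a log2 fold change of 0.05 (SE 0.0720, edgeR adjusted p = 0.725), with a 95% interval of -0.09 to 0.20. The 3 transporters that partner with basigin, Slc16a1, Slc16a3 and Slc16a8, summed to 1593 ± 57.6 CPM in Bbs8+/+ and 1621 ± 102 CPM in Bbs8-/- libraries (SD, n = 4 each), and these sums overlapped too. Per read of these transporters there were 0.708 ± 0.0588 and 0.727 ± 0.107 Bsg reads (SD, n = 4 each). The summed transporters thus differed between the genotypes by less than the spread between libraries. Photoreceptors also express Slc16a1 and an isoform of basigin. The part of the lower rod RNA in these sums and in the Bsg level was not tested.

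Slc2a1, which encodes GLUT1, lies at chr4:119108711-119137983 on the plus strand. It was at 484, 590, 634 and 607 CPM in Bbs8+/+ libraries and at 796, 640, 668 and 655 CPM in Bbs8-/- libraries. The genotypes did not overlap, but 634 CPM in Bbs8+/+ library 3 and 640 CPM in Bbs8-/- library 2 were almost level. The lowest Bbs8+/+ and the highest Bbs8-/- value were both those of library 1. The mean was 579 ± 65.8 CPM in Bbs8+/+ and 689 ± 71.7 CPM in Bbs8-/- libraries (SD, n = 4 each), a log2 fold change of 0.25 (SE 0.0855, edgeR adjusted p = 0.0454), or 19.2% higher. The call was lost without Bbs8-/- library 1 (log2 fold change 0.18, edgeR adjusted p = 0.222) and without Bbs8+/+ library 1 (0.18, edgeR adjusted p = 0.116). It was also lost without Bbs8+/+ library 2 or 4 or Bbs8-/- library 3 or 4, where the log2 fold change stayed at 0.26 to 0.28 (edgeR adjusted p of 0.0609 to 0.0784). Slc2a3, which encodes the neuronal glucose transporter GLUT3, had 0, 1, 2 and 3 counts in Bbs8+/+ and 0, 2, 4 and 2 in Bbs8-/- libraries, too few for a test.

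**Figure D2:**
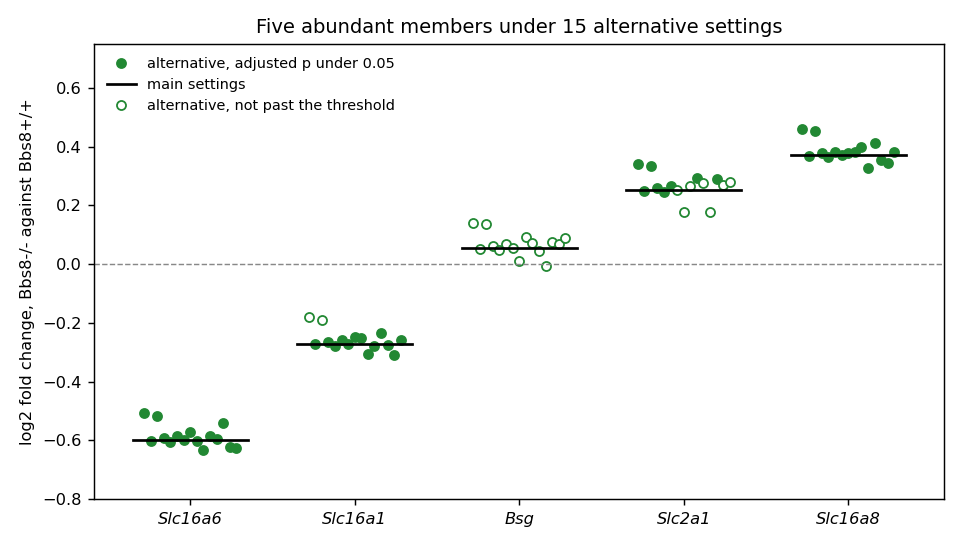
Log2 fold change of the 5 abundant members (vertical axis, Bbs8-/- against Bbs8+/+) with the main settings (black line) and in 15 alternative settings (circles, filled where the adjusted p was under 0.05). Slc16a6 and Slc16a8 kept their call throughout, Slc16a1 lost it in 2 settings, Slc2a1 kept it in 8 of 15, and Bsg never passed.

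The order of the read counts, which 3′ counting does not require to be divided by transcript length, was Bsg, Slc16a1, Slc16a8, Slc2a1, Slc16a6 in all 4 Bbs8+/+ libraries. Across those libraries the ranges of Slc16a8 (618 to 728 CPM) and Slc2a1 (484 to 634 CPM) overlapped, and the other neighbours did not. In Bbs8-/- libraries 2 to 4 the order was Bsg, Slc16a8, Slc16a1, Slc2a1, Slc16a6. In library 1 Slc2a1 came before Slc16a1, and the ranges of Slc16a1 (684 to 794 CPM) and Slc2a1 (640 to 796 CPM) overlapped. Per Slc16a1 read there were 0.655 ± 0.102 Slc2a1 reads in Bbs8+/+ and 0.943 ± 0.150 in Bbs8-/- libraries (SD, n = 4 each). The part of the lower rod RNA in this ratio was not tested.

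**Figure D3:**
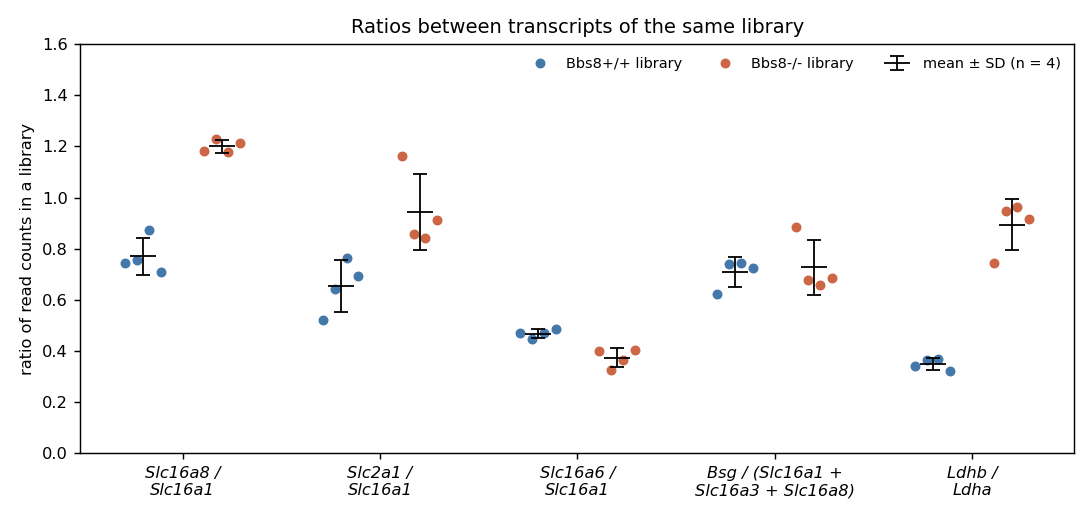
Ratio of read counts of 2 genes, or of Bsg to 3 transporters, in each library (vertical axis, no unit), with Bbs8+/+ in blue, Bbs8-/- in red and the mean ± SD in black. Slc16a8 per Slc16a1 passes from 0.771 to 1.20 and Ldhb per Ldha from 0.349 to 0.893 on average without overlap, while Bsg per summed transporters overlaps.

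Further transporters of both families were counted as a list. Of 8 other SLC16 genes, 3 could be tested and 1 was higher. This was Slc16a9, which encodes MCT9, at 157 ± 28.3 CPM in Bbs8+/+ and 256 ± 17.1 CPM in Bbs8-/- libraries (log2 fold change 0.70, SE 0.111, edgeR adjusted p = 1.02e-05). Of 14 other glucose and sodium-coupled transporters 5 could be tested, and only Slc2a12, which encodes GLUT12, passed. It was at 53.6 ± 17.1 CPM in Bbs8+/+ and 100.2 ± 20.3 CPM in Bbs8-/- libraries (SD, n = 4 each; log2 fold change 0.91, SE 0.179, edgeR adjusted p = 2.85e-04). With Slc2a1, 2 glucose transporters were called higher in Bbs8-/- libraries. Slc2a12 kept its call in all 15 alternative settings, and Slc2a1 kept its call in only 8 of them.

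Of basigin's relatives and partner, Nptn and Emb, which encode neuroplastin and embigin, did not pass, and 1 of 3 was lower. Nxnl1 encodes rod-derived cone viability factor, whose short form binds a basigin isoform of photoreceptors that partners with GLUT1. It was at 479, 407, 457 and 428 CPM in Bbs8+/+ and at 204, 166, 194 and 182 CPM in Bbs8-/- libraries (log2 fold change -1.25, SE 0.0926, edgeR adjusted p = 2.32e-13). Rods make Nxnl1, and the rod markers fell by a median log2 fold change of -1.27; their part in its fall was not tested.

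The enzymes that interconvert lactate and pyruvate moved apart, as Slc16a1 and Slc16a8 did. Ldha, whose product is the lactate dehydrogenase subunit of glycolytic tissue, was at 479, 434, 477 and 503 CPM in Bbs8+/+ and at 271, 248, 241 and 249 CPM in Bbs8-/- libraries (log2 fold change -0.91, SE 0.0858, edgeR adjusted p = 1.53e-10). Ldhb, whose product is the subunit of oxidative tissue, was at 165, 158, 176 and 161 CPM and at 202, 234, 232 and 228 CPM (log2 fold change 0.44, SE 0.0994, edgeR adjusted p = 0.00150). There were 0.349 ± 0.0221 Ldhb reads per Ldha read in Bbs8+/+ and 0.893 ± 0.10 in Bbs8-/- libraries (SD, n = 4 each). Rod markers fell between the same libraries, by a median log2 fold change of -1.27. Their part in the fall of Ldha and in this ratio was not tested. The other 10 tested genes of lactate and pyruvate handling, among them the mitochondrial pyruvate carriers Mpc1 and Mpc2, did not pass.

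Of 15 glycolytic enzymes 7 were lower and 2 higher, and the median log2 fold change of the list was -0.32. Pkm, which encodes pyruvate kinase of muscle and retina, went from 1088 ± 54.4 to 380 ± 18.2 CPM (SD, n = 4 each; log2 fold change -1.52), and Hk2, the hexokinase of photoreceptors, from 559 ± 30.0 to 224 ± 16.6 CPM (log2 fold change -1.32). Aldoa, Gpi1, Eno2, Pgam1 and Hk1 were lower by log2 fold changes of -0.74, -0.53, -0.68, -1.80 and -0.32, Hk1 passing in 13 of 15 alternative settings. Pfkm (0.70, edgeR adjusted p = 0.0450) and Pgk1 (1.29, edgeR adjusted p = 0.0487) were higher and passed in only 9 and 7 of 15 alternative settings. Without Bbs8+/+ library 1 both calls were lost, at log2 fold changes of 0.49 and 0.95. The genotypes overlapped for Pgk1, which reached 2.05 without Bbs8+/+ library 3 and missed the threshold by DESeq2 (adjusted p = 0.0551). Pgk1, Pgam1, Gapdh and other glycolytic genes have processed copies elsewhere in the genome, and because only uniquely mapped reads were counted their levels are uncertain. The fall of glycolytic enzymes went along with that of the rod markers; the part of the latter was not tested.

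Among 15 regulators of glucose uptake, of which 14 could be tested, 2 were higher, against 4 with library size alone or scaled to RPE genes and 1 by DESeq2. Irs1, an adaptor of the insulin receptor, rose from 6.14 ± 2.15 to 21.7 ± 3.27 CPM (SD, n = 4 each; log2 fold change 1.81, edgeR adjusted p = 9.16e-05). Txnip, which promotes removal of GLUT1 from the membrane, was at 27.2 ± 9.71 and 44.0 ± 11.2 CPM (log2 fold change 0.70, edgeR adjusted p = 0.0437), and the ranges overlapped. Its call was lost in 6 of 15 alternative settings, including without Bbs8+/+ library 1, where the log2 fold change was 0.48. Hif1a, whose product binds ACGTG, was at 243 ± 28.1 and 242 ± 11.2 CPM (SD, n = 4 each; edgeR adjusted p = 0.970).

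For each called member, the 3 genes with the most similar profile over the 8 libraries were found among 8418 named genes of at least 10 CPM, by the root-mean-square distance of log2(CPM + 0.5) values centred on each gene's mean. For Slc16a1 these were Hk1 (distance 0.0380), Clptm1 and Mif, and for Slc16a8 they were Bmpr2 (0.0608), Ankrd44 and Ldhb. Slc16a6 was nearest to Cdhr1 (0.0511), a cadherin of photoreceptor outer segments, then Clstn1 and Hmgn1. Slc16a3 was nearest to Cryge (0.622), Myom2 and Crygs, of which Cryge and Crygs encode lens crystallins. Slc2a1 was nearest to St3gal1 (0.0678), Tnrc6a and G3bp2. Distances are a description over 8 libraries of 2 genotypes, and any gene with a similar fold change comes near.

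Other marker lists gave the following counts. Of 16 tested RPE markers 8 were higher and 2 lower. Their median log2 fold change was 0.28, and Rpe65 was among the lower ones (-0.24, edgeR adjusted p = 4.67e-04). All 17 listed RPE markers summed to 37893 to 39075 CPM in Bbs8+/+ and 47413 to 51270 CPM in Bbs8-/- libraries. Ttr alone made up 20932 ± 540 and 31748 ± 1397 CPM of these sums (SD, n = 4 each). Erythrocyte markers were lower in 5 of 7 (summed level 5181 to 5761 CPM in Bbs8+/+ and 2026 to 2243 CPM in Bbs8-/- libraries), cone markers higher in 5 of 9 (173 to 223 and 299 to 341 CPM) and Müller glia markers higher in 3 of 10 (4177 to 4355 and 4747 to 5034 CPM). Most of the Müller glia sums came from Rlbp1, Glul and Car14, with means of 1839, 1199 and 1056 CPM in Bbs8+/+ libraries. Rlbp1 is also on the RPE list. Glul was higher, and Rlbp1 and Car14 did not pass. By edgeR 0 of 8 endothelial markers passed, as by DESeq2, and 0 had an unadjusted p under 0.05. Their summed levels of 35.7 to 44.4 and 36.5 to 42.8 CPM overlapped between the genotypes. Endothelium of the retina is rich in Slc2a1. The SE of each tested endothelial marker exceeded the log2 fold change of 0.25 of Slc2a1, so a change of that size could not be detected in them. Of 8 microglia markers 0 passed by edgeR or DESeq2 and 1 had an unadjusted p under 0.05. Bipolar and amacrine markers had 1 higher and 1 lower of 8, and fibroblast markers 2 lower of 8. The fibroblast calls were lost (0) with library size alone and scaled to RPE genes, and the higher call among bipolar and amacrine markers was lost (0) with the replicate numbers in the model and when any 1 of Bbs8+/+ libraries 2 and 4 and Bbs8-/- libraries 1 and 2 was left out. Of 9 ocular surface epithelium markers, several of which passed the filter on low values through the Bbs8-/- libraries alone, the summed level was 11.5 to 18.4 CPM in Bbs8+/+ and 91.2 to 101 CPM in Bbs8-/- libraries. The part of these tissues in the differences of Slc16a8 and Slc2a1 was not tested.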

How the data were processed

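QuantSeq 3′ libraries of RPE from 4 Bbs8+/+ and 4 Bbs8-/- mice at P29 were analysed. The authors trimmed the 100 bp single-end reads with BBDuk, aligned them with STAR to mm10 and counted uniquely mapped reads per Ensembl gene with htseq-count; the deposited counts are raw and unfiltered. Entries that name no gene (51.0% to 54.2% of reads) were left out; 14115 to 14496 genes had a count in Bbs8+/+ and 13657 to 14084 in Bbs8-/- libraries. Genotypes were taken from the labels. No pair of libraries was identical.

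Genes that reached 1 CPM in 4 or more libraries entered the test in R 4.3.3 with edgeR 4.0.16 (TMM, quasi-likelihood F test, two-sided, Benjamini-Hochberg adjustment over all 12889 genes, threshold 0.05). The test was checked on simulated data. CPM are TMM-scaled, fold changes are log2, and 95% intervals are normal intervals from the SE. Each SE of edgeR is the absolute log2 fold change divided by the square root of the F statistic. Such intervals are somewhat narrower than the F test implies. Intervals and the floor of 3 counts cover counting and replicate error of these libraries only. Gene names matched 30934 of 31053 identifiers, and positions come from GENCODE on GRCm38. Where a symbol had 2 identifiers the one with more counts was used. The members and gene lists were chosen with earlier results of these data known. Named genes are the members, Ttc8, called genes of the pathway lists, the 3 nearest profiles per called member and overlapping genes. Rpe65, Rlbp1, Best1, Cldn19, Ttr, Glul, Car14, Nptn, Emb, Mpc1, Mpc2, Gapdh and Hif1a were named after their values were seen.

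Alternatives were library size alone, TMM without photoreceptor, lens and erythrocyte markers, scaling to RPE genes, DESeq2 1.42.0, no filter, filterByExpr, a replicate block, each library left out, and an adjusted p of 0.01. The ratios and the summed transporter level, with their settings, were added after seeing the data. P11 libraries and proteome were not analysed here.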

Additional observations from a re-analysis of the deposited data

Results flagged for a closer look

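Within each genotype the 4 libraries were searched for a value far from the other 3 by Dixon's test, over 84 groups, of which chance flags about 1 in 20. Bbs8-/- library 1 had 0.886 Bsg reads per summed read of Slc16a1, Slc16a3 and Slc16a8, with the next library at 0.686. Bbs8+/+ library 1 had the lowest such ratio of its genotype, 0.621, with the next at 0.726. Slc16a10 stood at 0.818 CPM in Bbs8+/+ library 3, which is 2 counts, and at 0 in the other 3. Pfkm was at 12.2 CPM in Bbs8+/+ library 1 and at 24.9 CPM or more in the other 3. The summed ocular surface epithelium markers were at 101 CPM in Bbs8-/- library 3, with the next at 92.8 CPM. No difference between genotypes in 2 ages or tissues could be compared, since all libraries used are of P29 RPE.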

How the results depend on the processing

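Slc16a3, Slc16a6 and Slc16a8 kept their direction and stayed past the threshold in 15 of 15 alternative settings. Slc16a1 did so in 13. It was at -0.182 with library size alone and -0.190 scaled to RPE genes (log2). Of 8 genes listed for the latter scaling 7 were tested, 1 being higher and 2 lower. Only the 6 with a count in every library set that scale. Library size alone and scaling to RPE genes raised the median log2 fold change of all tested genes from 0.02 to 0.11 and 0.10. They raised the share of higher among all called genes from 44.5% to 60.5% and 59.5%. Replicate numbers did not pair the libraries (same-number correlations of deviations -0.0546 to 0.00530). With the replicate block Slc2a1 was at 0.254 (edgeR adjusted p = 0.0647), which left 1 member called higher instead of 2, and it changed no call of another member or named pathway gene. Leaving out each library gave Slc2a1 0.177 to 0.295, members called higher 1 to 2, and pathway genes called higher 4 (without Bbs8+/+ library 1) to 6, against 7 with all libraries and 9 with library size alone or scaled to RPE genes. Pathway genes called lower were 9 with all libraries, 8 under these scalings and 13 without Bbs8+/+ library 1. With an adjusted p of 0.01, 1 member and 4 pathway genes were called higher. Bsg changed sign, at -0.00715, without Bbs8-/- library 1 and reached 0.0939 without another. Slc16a7 changed sign, at -0.0883 without Bbs8+/+ library 4 and -0.0543 without Bbs8-/- library 2, and reached 0.782 without another; filterByExpr removed it and DESeq2 gave it no adjusted p. The cause of these shifts was not tested. The summed transporters differed by a log2 ratio of -0.00769 to 0.114 over their settings. At 3 counts per 1.02 to 1.23 CPM, depth leaves Slc16a7, Slc16a10 and Slc2a3 undecided.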
